A study of Mus musculus with 12 samples.

Results

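Colon RNA of wild-type (WT) mice given azoxymethane and dextran sodium sulfate (AOM/DSS) was compared with colon RNA of WT mice given water. The comparison was defined by the labels and used 6 of the 12 arrays of the series, 3 per group, each labelled a biological replicate. All mice were of the C57BL/6 strain, and the methods describe males that were 7 weeks old at the start. The AOM/DSS mice were injected once with AOM at 10 mg/kg, drank 1.5% DSS for 7 days in each of 4 cycles, and were sacrificed 15 weeks after AOM and 4 weeks after the last DSS. The other 6 arrays came from TSP-1-/- mice, which lack thrombospondin-1, with and without the same treatment. RNA was taken from normal and diseased colonic tissue, and the labels do not say how much of any sample was tumor. The labels place AOM on the first day of DSS and the methods a week earlier. The labels of the water arrays describe the protocol of another DSS experiment, so whether those mice were kept alongside the treated ones is not known. The comparison asks which transcripts differ between a colon that went through repeated inflammation and tumor formation and an untreated colon.

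AOM is a mutagen activated by metabolism, and its best known targets in the colonic epithelium activate the Wnt pathway, which keeps crypt cells dividing. DSS damages the epithelial barrier, so that bacteria reach the mucosa and neutrophils, macrophages and lymphocytes enter it. Feedback inhibitors of Wnt, matrix metalloproteinases and antimicrobial proteins of Paneth cells, which a normal mouse colon largely lacks, are among the classes commonly described in tumors of this model. Mast cells store proteases in their granules and are found in the mucosa of inflamed intestine.

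The arrays were Affymetrix MoGene 1.0 ST, and every value is a log2 signal relative to a baseline of its own probe. Levels therefore cannot be compared between genes, and the labelled tissue could not be checked by the absence of markers. The methods give that baseline as the median of all 12 samples, but the deposited columns had a 12-array median of 0 in 3.35% of the 28815 probes with values on all arrays (tolerance 0.0001). The 6 water columns were therefore moved by 1 offset per probe that brought the median of the 12 arrays to 0. The offsets had a median of 0.03 and lay between -0.30 and 0.35 for the middle of the distribution, from the 5th to the 95th percentile. A single offset does not repair the water columns everywhere. In 5816 probes a pair of neighbouring AOM/DSS values were exactly opposite (tolerance 1e-05), which places the remaining arrays outside that gap, and in 1858 of these (31.9%) no offset left all 6 water values outside it. Treatment and array set coincided, so that an effect of AOM/DSS and a difference between the array sets cannot be told apart in any value given here.

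A test was made that needs no value from the water columns. If the baseline of the AOM/DSS columns is the median of the 12 arrays, 6 AOM/DSS values above it place the 6 water arrays, WT and TSP-1-/-, at or below it. Such a probe is called separated, with an exact 2-sided permutation p of 0.00216 over all splits of the 12 arrays and a Benjamini-Hochberg adjusted p of 0.0359 over all 28853 probes. The call therefore rests on both genotypes, and "rose" and "fell" are used only of separated probes. The highest water array then lies as far below 0 as the lowest AOM/DSS array lies above it, which gives a least fold for the WT arrays. After the offset the groups of a separated probe cannot overlap, so that their lack of overlap below restates the call. In WT alone, 3 arrays against 3 cannot go below p = 0.1 in an exact permutation test, so the WT differences themselves are descriptions.

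WT AOM/DSS replicate 1 stood apart from the other two. Over all probes it correlated with replicates 2 and 3 at r = 0.02 and 0.09, and with the TSP-1-/- AOM/DSS arrays at 0.42, 0.48 and 0.20. Replicates 2 and 3 correlated with each other at 0.33 and with the TSP-1-/- AOM/DSS arrays at -0.08 to -0.23. These are descriptions over probes that share an array, without a test. Each value is relative to a median that includes these arrays, which by itself can make r negative. Hoxb13, a homeobox gene of the most distal colon, read 0.43 in replicate 1, -6.33 in replicate 2 and -5.89 in replicate 3 of WT AOM/DSS. In WT water it read 0.87, -0.09 and -5.29. TSP-1-/- water replicate 3 was also low, at -5.85. The Hoxb13-low arrays were thus WT AOM/DSS 2 and 3, WT water 3 and TSP-1-/- water 3. The part of sampling position in the results was not tested, and values without replicate 1 are given where it decides them. Counts of probes with replicate 1 the highest or lowest of its group are given without the share over all probes.

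The transcripts that fell included many microRNA genes. A microRNA pairs with target messages mainly through its seed, bases 2 to 8, and members of a family share it. The following set shows separated microRNA genes that share a seed, together with the largest fall and several microRNAs well known from epithelium, vessels and inflammation. Sequences are those of RefSeq (GRCm38.p6), written 5′ to 3′ with the seed in capitals. The array probes lie at the gene and do not tell the arms of a hairpin, or a mature microRNA from its precursor. One arm is shown for each, for Mir1a-1 the 5p arm and not its better known 3p arm.
Mir15b, miR-15b-5p: uAGCAGCAcaucaugguuuaca
Mir16-2, miR-16-5p: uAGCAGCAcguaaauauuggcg
Mir125b-1, miR-125b-5p: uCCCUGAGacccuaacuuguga
Mir125b-2, miR-125b-5p: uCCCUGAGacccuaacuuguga
Mir98, miR-98-5p: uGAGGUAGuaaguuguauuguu
Mirlet7f-1, let-7f-5p: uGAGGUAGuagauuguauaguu
Mir30a, miR-30a-5p: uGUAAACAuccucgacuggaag
Mir384, miR-384-5p: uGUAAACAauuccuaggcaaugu
Mir450-1, miR-450a-1-3p: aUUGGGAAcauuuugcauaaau
Mir450b, miR-450b-3p: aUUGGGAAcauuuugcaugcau
Mir141, miR-141-3p: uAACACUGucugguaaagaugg
Mir200b, miR-200b-3p: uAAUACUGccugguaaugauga
Mir146, miR-146a-5p: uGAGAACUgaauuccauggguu
Mir34a, miR-34a-5p: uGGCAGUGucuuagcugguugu
Mir29a, miR-29a-3p: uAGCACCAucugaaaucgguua
Mir190b, miR-190b-5p: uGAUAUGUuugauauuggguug
Mir126a, miR-126a-3p: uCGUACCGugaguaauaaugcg
Mir1a-1, miR-1a-1-5p: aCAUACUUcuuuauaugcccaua

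Mir15b at chr3:69009775-69009796 and Mir16-2 at chr3:69009918-69009939 are neighbours on the plus strand. The Mir125b copies encode the same mature sequence from chr9:41581940-41581961 and chr16:77646279-77646300, both on the plus strand. Mir98 lies at chrX:151913229-151913250 on the plus strand and Mirlet7f-1 at chr13:48537889-48537910 on the minus strand. Mir450b at chrX:53048008-53048029 and Mir450-1 at chrX:53048171-53048192 are neighbours on the minus strand. Mir141 is at chr6:124717917-124717938 and Mir200b at chr4:156055685-156055706, both on the minus strand, and Mir1a-1 at chr2:180389057-180389079 on the plus strand.

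More probes fell than rose with all arrays, and the falls were larger. All 6 AOM/DSS arrays lay above the baseline in 582 of 28853 probes (2.02%) and below it in 1159 (4.02%). Without WT AOM/DSS replicate 3 the counts were 1541 and 1600, and without replicate 2 they were 936 and 1416. Counts with an array left out set the AOM/DSS arrays against the water columns after the offset, so that they rest on that offset. The median WT difference, AOM/DSS minus water, was 0.40 over the probes that rose and -0.67 over those that fell. Over all probes it was -0.04. In WT alone, a difference of 2-fold or more was seen upwards in 101 of 28815 probes (0.351%) and downwards in 262 (0.909%). With the water columns as deposited the split turned to 248 higher and 115 lower. The 3 and 3 WT arrays did not overlap in 59 of those 101 and in 215 of those 262. Without overlap at any size of difference there were 2580 higher (8.95%) and 4230 lower (14.7%). Of the 101 higher probes 19 were separated, and of the 262 lower probes 181. By the least fold, which uses the AOM/DSS columns only, 3 probes rose and 82 fell by 2-fold or more. WT AOM/DSS replicate 1 was the highest of its group in 56 of the 101 and the lowest in 28. Of the 101, 68 were still 2-fold higher without it. Among the 262 lower probes it was the highest in 93 and the lowest in 85.

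Cpa3, the carboxypeptidase of mast cell granules, had the largest rise among separated probes with 1 gene symbol. It read 2.53, 0.12 and 1.17 in WT AOM/DSS replicates 1 to 3 and -0.53, -0.74 and -0.45 in WT water. The groups did not overlap, and replicate 2 was closest to the controls. The WT difference was 1.84 (3.59-fold), at least 2.62-fold by the least fold. Without replicate 1 it was 1.22.

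Genes of mucosal defense were among the leading rises. Duox2, the epithelial oxidase that makes hydrogen peroxide at the mucosal surface, read 1.23, 0.16 and 0.66 after AOM/DSS against -0.65, -0.89 and -0.77 in water. Every AOM/DSS array was above every control, and the difference was 1.45 (2.74-fold). Nlrp3, a sensor that assembles the inflammasome, read 0.55, 0.50 and 0.19 against -1.83, -0.73 and -0.19. Here the treated arrays were close together and the controls spread widely, so that the difference of 1.33 became 0.87 without WT water replicate 1.

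H2-M2, a nonclassical MHC class I gene, and Sh2d1b1, an adaptor of SLAM family receptors in natural killer cells, also rose. H2-M2 read 0.54, 0.75 and 0.41 against -0.41, -0.45 and -1.30. Sh2d1b1 read 0.55, 0.46 and 0.29 against -0.56, -1.04 and -0.92. In both genes the 3 treated arrays were close together and above every control, and the differences were 1.29 and 1.27. Irf1, a transcription factor of the interferon response, rose by 0.80 at one of its 2 probes, reading 0.64, 0.25 and 0.36 against -0.32, -0.41 and -0.42. The other Irf1 probe was not separated, with a difference of 0.23, and the first lost its separation when each array was centred on its median.

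Wif1, a secreted protein that binds Wnt ligands, was the Wnt inhibitor that rose. It read 1.41, 0.09 and 0.89 after AOM/DSS and -0.39, -0.56 and -0.26 in water. Replicate 2 was again the lowest treated array, just above the highest control, and the difference was 1.20 (2.30-fold, least fold 1.85). In TSP-1-/- colon the corresponding difference was 3.69. Limma's test of the difference between the genotypes gave an adjusted p between 0.121 and 0.992 for the 24 leading genes.

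The other leading rises belong to hormone, stress and one-carbon metabolism, ion transport, muscle and the clock. Dio3, the deiodinase that inactivates thyroid hormone, read 0.29, 0.42 and 0.29 against -0.57, -1.74 and -1.24, a difference of 1.52 made by 3 close treated arrays and scattered controls. Its least fold was 1.26, the lowest of the 12, and it was no longer separated when each array was centred on its median. Mthfd2, the mitochondrial folate enzyme of dividing cells, read 0.89, 0.24 and 0.57 against -0.46, -0.64 and -0.29. Bhlhe41, a repressor in the circadian clock, read 0.03, 1.29 and 1.55 against -0.49, -1.0 and -0.41, with replicate 1 the lowest. Mt4, a metallothionein of squamous epithelium, read 2.86, 0.03 and 0.10 against -0.08, -0.06 and -0.07. All 3 treated arrays were above the controls, but its difference of 1.06 fell to 0.13 without replicate 1. Kcnk10, a background potassium channel, differed by 1.04 and Myl7, an atrial myosin light chain, by 1.28. Of the 12 leading rises, 8 had a larger difference in TSP-1-/- colon than in WT, as had 445 of all 582.

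**Figure D1:**
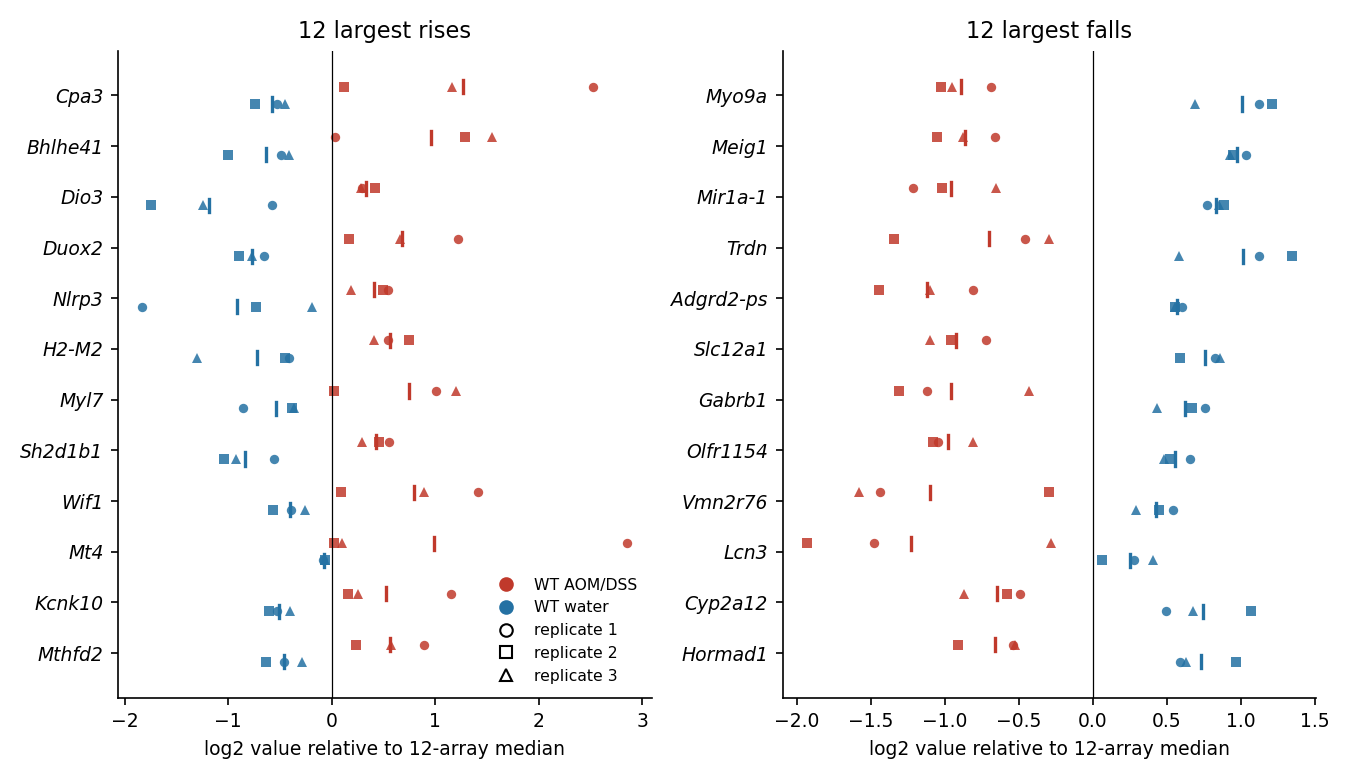
Log2 value relative to the 12-array median (x axis) of the 12 largest rises (left) and 12 largest falls (right) among separated probes with 1 gene symbol, for the 3 WT AOM/DSS (red) and 3 WT water arrays (blue). Symbols mark the replicate and vertical bars the group means. Replicate 1 carries the rise of Mt4 with 2.86, whereas the treated arrays of Dio3 lie between 0.29 and 0.42.

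Beyond the leading genes, the data were read by 36 gene lists, of which those of cell types and pathways, the microRNAs apart, held 641 probes of 584 genes. Of these probes 12 rose (1.87%, against 2.02% of all probes) and 3 fell (0.468%, against 4.02%). The 12 were Cpa3, Sh2d1b1, H2-M2, Irf1, Wif1, Duox2, Mcm2, Ly6d, Mt4, Bmp7, Actb and Polr2a, and the 3 were Clec10a, Vip and Dsg3. The share that rose was close to the background. Actb and Polr2a, of the cytoskeleton and of RNA polymerase II, belong to the list of reference genes and rose by 0.46 and 0.28. In whole tissue, fewer cells of a type and less RNA per cell cannot be told apart.

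Mast cell genes differed between the treated replicates. Of 13 measured probes 1 rose (Cpa3) and 0 fell, and the list's median WT difference was 0.30 against -0.04 over all probes. Mcpt2, a chymase of mucosal mast cells, read 5.97, 0.04 and -0.04 after AOM/DSS and -0.01, -0.53 and 0.01 in water. Mcpt4, a chymase of connective tissue mast cells, differed by 0.92. Mcpt1, a chymase like Mcpt2, read 4.77, -1.71 and 0.78 against 0.16, -0.93 and -0.71. Replicate 1 was far above its own group in Mcpt1 and Mcpt2, and the groups overlapped. The same was seen for Fcer1a, the alpha chain of the IgE receptor, at 2.21, -0.71 and 0.24. Replicate 1 was the highest of its group in 9 of the 13 probes, and without it the median was 0.06. In TSP-1-/- colon the list's median difference was 0.82.

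Macrophage and dendritic cell genes had a median difference of 0.14 over 18 probes, 10 of them higher in WT and 8 lower. Of these, 0 rose and 1 fell. Mmp12, the elastase of macrophages, read 1.65, -0.42 and 0.42 against -2.14, -2.33 and -1.10, a difference of 2.41. Gpnmb, a glycoprotein of lipid-laden macrophages, read 0.56, -0.48 and 0.48 against -0.72, -1.82 and -1.34, a difference of 1.48. In both genes the WT groups did not overlap, but replicate 2 was below the baseline, so that 5 of 6 AOM/DSS arrays were above it (exact permutation p = 0.0801, adjusted p = 0.285). Cd68, a lysosomal marker of macrophages, differed by 0.89 without overlap in the same way. Clec10a, a lectin of macrophages and dendritic cells that binds galactose, fell, reading -0.23, -0.10 and -0.03 against 0.64, 0.55 and 0.20. It was named after its values were seen.

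Neutrophil genes showed no common direction, with 0 of 15 probes separated and a median of 0.03. Ltf, the lactoferrin of neutrophil granules, read -0.15, -0.47 and -0.46 against 1.99, 1.85 and -0.05. Csf3r, the receptor of granulocyte colony-stimulating factor, differed in the other direction by 0.96, with WT water replicate 3 at -0.01 among the treated values. T and NK cell genes had a median of 0.25 over 16 probes and of 0.47 without replicate 1, which reverses the order of replicates seen for mast cells. Cd3e, a chain of the T cell receptor complex, read -0.07, 0.73 and 1.54 against -0.14, -0.35 and -0.01. B and plasma cell genes had a median of 0.07 over 17 probes with 0 separated. Its largest member, 1 of 3 probes of Ighm, read 0.53, -0.57 and 2.68 and overlapped with the controls.

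Cytokines and chemokines included the largest upward WT difference of any probe with 1 gene symbol. Cxcl1, which attracts neutrophils, read 0.24, 0.01 and -0.21 after AOM/DSS and -3.68, -3.43 and -0.14 in water. The difference of 2.43 (5.39-fold) came from 2 low controls, while the treated arrays were close to the baseline and WT water replicate 3 lay among them. Tnf, the central cytokine of colitis, read 1.04, -0.13 and 0.13 against -1.03, -0.69 and -0.63 and did not overlap. Il10, an inhibitory cytokine, differed by -0.55 without overlap. None of the 22 probes of this list was separated. In the interferon-regulated list, where Irf1 was the 1 separated probe of 16, Cxcl9, a chemokine of T cells, differed by 1.69 without overlap.

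Matrix metalloproteinases had a median difference of 0.46 over 16 probes, 13 of them higher, with 0 separated. Mmp13 read 2.16, -0.13 and -0.47 against -1.06, -1.58 and -0.43, and Mmp10 read 2.24, -1.51 and -0.63 against -1.55, -1.41 and -0.97. Both were far higher in replicate 1 than in replicates 2 and 3. Without it the list's median was 0.26. Collagens and matrix genes had a median of -0.16 with 13 of 19 probes lower. Col1a1, the main fibrillar collagen, read -0.29, -0.77 and -0.57 against -0.10, 0.01 and -0.01, without overlap in WT. Its difference was -0.51 in WT and 0.64 in TSP-1-/- colon.

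Among Wnt genes, inhibitors had a median of 0.18 over 18 probes and of -0.11 without replicate 1, which was the highest of its group in 14. Dkk2, a secreted antagonist of the Wnt coreceptor, read 2.36, -0.51 and -0.90 against -0.18, -0.14 and -0.05. Nkd1, an intracellular feedback inhibitor, read 1.78, 0.27 and -0.27 against -0.31, -0.50 and 0.16. Apcdd1, a membrane inhibitor, read 1.46, 0.01 and -0.16. In these 3 genes replicate 1 was far above replicates 2 and 3 and the controls, and the TSP-1-/- AOM/DSS arrays were higher still, between 2.65 and 3.78. Wnt targets and stem cell genes had a median of 0.23 over 16 probes, 0.03 without replicate 1, and 0 were separated. Axin2, a direct Wnt target, read 0.80, -0.01 and -0.10 against -0.42, 0.01 and -0.01. Prom1, a marker of crypt base cells, differed by 0.66 without overlap in WT.

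Paneth cell and antimicrobial genes had the highest median of any list, 0.79 over 14 probes, which became -0.01 without replicate 1. In TSP-1-/- colon the list's median difference was 1.10, with medians of 0.20, 1.14 and 1.59 on the AOM/DSS arrays. Lyz1, the lysozyme of Paneth cells, read 3.03, -0.29 and 0.12 against -0.19, -0.91 and -0.58. Pla2g2a, the secreted phospholipase of Paneth cells, read 3.17, -2.34 and -0.34 against -0.73, -0.65 and -0.90. Mmp7, the protease that activates their defensins, read 3.10, -0.44 and -0.13 against -0.21, 0.08 and -0.22. Replicate 1 was the highest of its group in 10 of the 14 probes. Reg3g, a bactericidal lectin, had the other order, with -1.73, 0.71 and 2.04 against -2.88, -0.87 and 0.04.

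**Figure D2:**
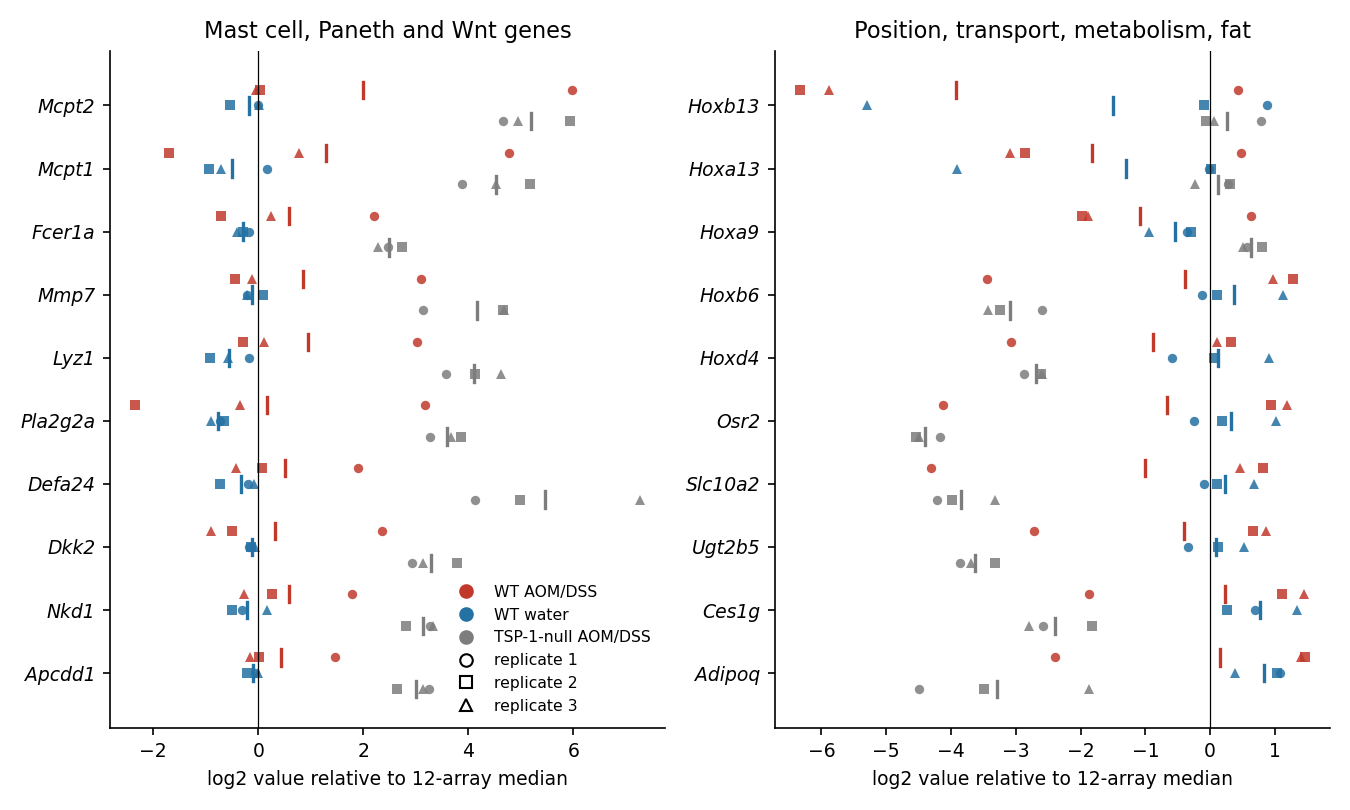
Log2 value relative to the 12-array median (x axis) of genes of mast cells, Paneth cells and Wnt inhibition (left) and of gut position, transport, metabolism and fat (right) in WT AOM/DSS (red), WT water (blue) and TSP-1-/- AOM/DSS arrays (gray, written TSP-1-null), with bars at the group means. The genes are a choice from the lists, and Reg3g, which has the other order of replicates, is not among them. On the left WT AOM/DSS replicate 1 lies near the gray arrays for Mcpt2, at 5.97, and below them for Dkk2, Nkd1 and Apcdd1. On the right replicate 1 is the low one of the WT AOM/DSS arrays for Osr2, at -4.13. Hoxb13 and Hoxa13 show the reverse, with replicates 2 and 3 and WT water 3 low.

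Lists of growth factors and cell division held few separated probes. Bmp7, a bone morphogenetic protein, rose by 0.55, reading 0.04, 0.22 and 0.23 against -0.54, -0.56 and -0.06, and was the one separated probe of 22 in the activin, BMP and TGF-beta list. Inhba, the activin A subunit, read 0.73, 0.09 and -0.09 against -2.11, -2.08 and -1.10, a 4.02-fold difference that missed separation by 1 array just below the baseline. Inhbb differed by 0.99 and overlapped. In the EGF family, 11 of 13 probes were higher with 0 separated and a median of 0.17, and the list was led by the ligands Nrg1 (1.00) and Ereg (0.93). Mcm2, a subunit of the replicative helicase, rose by 0.71 and was the one separated probe of 23 in the cell cycle list. Mki67, a marker of dividing cells, read 0.63, 0.09 and -0.04 against -0.21, -0.11 and 0.02. The list's median was 0.13, and -0.10 without replicate 1.

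Epithelial function genes separated in 0 of 16 goblet cell, 0 of 18 brush border, 0 of 20 ion and water transport and 0 of 27 drug and steroid metabolism probes. Goblet cell probes were higher in 14 of 16 with a median of 0.20. Glycolysis probes were higher in 19 of 21 with a median of 0.12, led by the glucose transporter Slc2a1 at 0.85. Over all probes 12929 of 28815 were higher in WT. The brush border genes Myo1a and Vil1 differed by 0.57 and 0.44 without overlap. Squamous epithelial genes went in both directions, Ly6d rising by 0.36 and Dsg3, a desmosomal cadherin, falling by 0.76. Vip, a peptide of enteric neurons that relaxes muscle, fell by 0.80, reading -0.19, -0.55 and -0.26 against 0.22, 0.18 and 0.99. With the water columns as deposited its difference was 0.14.

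Genes of gut position, bile acid uptake, metabolism and fat differed between the treated replicates more than between the groups. Osr2, a transcription factor, read -4.13, 0.94 and 1.19 against -0.25, 0.19 and 1.02, and Hoxb6 read -3.44, 1.28 and 0.98. Slc10a2, the bile acid transporter of the distal small intestine, read -4.31, 0.81 and 0.46 against -0.09, 0.10 and 0.67. Ugt2b5, a glucuronosyltransferase, read -2.71, 0.67 and 0.86, and Adipoq, the adiponectin gene of fat cells, read -2.40, 1.46 and 1.40 against 1.08, 1.04 and 0.39. Among the WT arrays, replicate 1 alone was low in these 5 genes. It was the lowest of its group in 25 of 27 drug and steroid metabolism probes. The position list had the lowest median, -0.64 over 20 probes, and 0.03 without replicate 1. The median of the drug and steroid metabolism list went from -0.02 to 0.34 and that of the adipocyte list from 0.25 to 0.59. The TSP-1-/- AOM/DSS arrays were low in these lists as well. Their medians were -0.90, -0.47 and -0.73 for position and -0.86, -0.71 and -1.89 for drug and steroid metabolism. For adipocytes they were -0.79, -0.65 and -0.66. On WT AOM/DSS replicate 1 the medians of these lists were -0.67, -0.59 and -0.65.

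**Figure D3:**
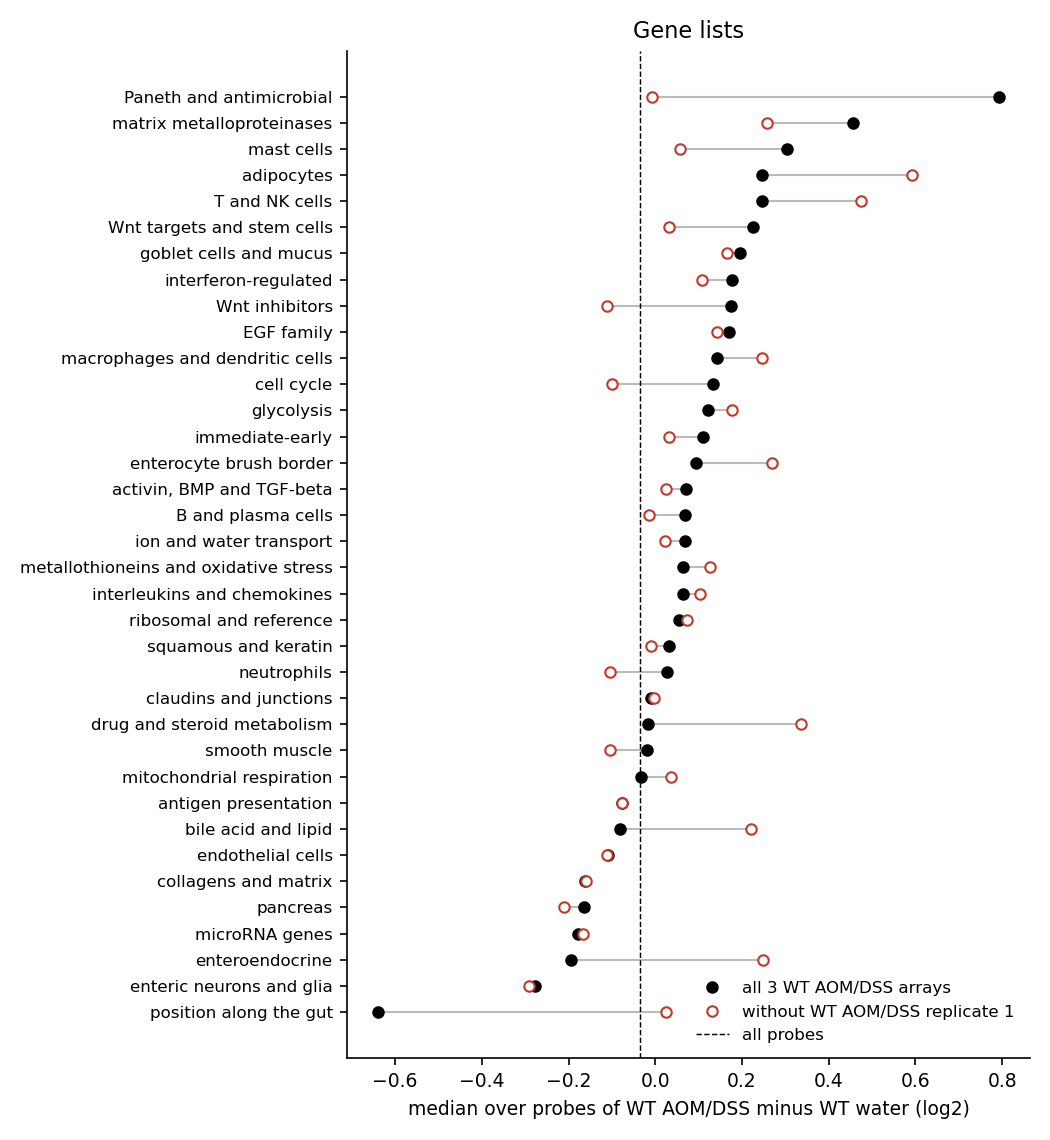
Median over probes of the WT difference, AOM/DSS minus water in log2 units (x axis), for each gene list with all 3 WT AOM/DSS arrays (filled) and without replicate 1 (open). The dashed line is the median over all probes, -0.04. Paneth cell genes go from 0.79 to -0.01 and position genes from -0.64 to 0.03, whereas microRNA genes go from -0.18 to -0.17.

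The share of microRNA genes that fell was above that of all probes. Of 301 probes of 298 microRNA genes, 38 fell (12.6%, against 4.02% of all probes) and 4 rose (1.33%, against 2.02%). The 38 had WT differences from -0.36 to -1.80 and a median of -0.83, and 12 of them were 2-fold or more lower. Their least folds were 1.16 to 3.06. The list's median was -0.18 against -0.04 over all probes. It was -0.17 without replicate 1. In TSP-1-/- colon it was 0.06, against 0.06 over all probes. The medians on the 3 WT AOM/DSS arrays were -0.16, -0.02 and -0.26, and on the 3 water arrays 0.02, -0.04 and 0.11.

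Mir1a-1, a microRNA of muscle, had the largest fall of them, reading -1.21, -1.02 and -0.65 against 0.77, 0.89 and 0.85. Of the pair with the seed AGCAGCA, Mir15b read -0.71, -0.91 and -0.93 against 0.61, 0.47 and 0.34, and Mir16-2 fell by 0.69. The array holds 6 genes with this seed. The Mir125b copies, with the seed CCCUGAG, fell by 0.94 and 0.91, and are 2 of 3 genes with it. With GUAAACA, Mir30a fell by 0.80 and Mir384 by 0.93, and these are 2 of 5. Mir450-1 and Mir450b are the 2 genes on the array with UUGGGAA, and both fell, by 0.58 and 1.02. Their neighbour Mir450-2 was not separated and differed by -0.09.

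Separated members of other families went in opposite directions. Mirlet7f-1 and Mir98 share the let-7 seed GAGGUAG and are 2 of 9 genes with it on the array, yet Mirlet7f-1 rose and Mir98 fell. Mirlet7f-1 read 0.41, 0.50 and 0.15 against -0.36, -1.10 and -0.35, and Mir98 read -0.58, -0.06 and -0.69 against 0.17, 0.26 and 0.37. Likewise Mir141 fell and Mir200b rose, both of the microRNA group that maintains epithelial identity, whose seeds AACACUG and AAUACUG differ as printed above. Mir141 read -1.03, -0.48 and -0.46 against 0.59, 0.53 and 0.67, and Mir200b read 0.05, 0.32 and 0.26 against -0.05, -0.13 and -0.34. Mir219a-1 and Mir532 rose by 0.36 each, the former not once arrays were centred on their medians.

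Several microRNAs with known roles in inflammation and tumors fell. Mir146, a brake on signaling from Toll-like receptors, read -0.86, -0.74 and -0.61 against 0.36, 0.49 and 0.36, a difference of -1.14. Mir34a, a target of the DNA damage response, read -0.75, -0.28 and -0.73 against 0.29, 0.50 and 0.55. Mir29a, a repressor of collagens, read -0.75, -0.56 and -0.64 against 0.26, 0.34 and 0.21. Its relation to the collagen genes was not tested. Mir126a, of endothelial cells, read -0.44, -0.20 and -0.42 against 0.41, 0.39 and 0.44, and Mir190b fell by 1.04. The Dio3 region of chromosome 12 holds a large imprinted microRNA cluster. Within 1 Mb of Dio3 there were 40 microRNA probes, of which 8 fell (20.0%, against 12.6% of all microRNA probes and 4.02% of all probes) and 0 rose, with a median of -0.18, while Dio3 itself rose. The 8 were Mir136, Mir369, Mir376c, Mir541, Mir376a, Mir434, Mir377 and Mir382. Elsewhere Mir201, Mir701, Mir297-1, Mir153, Mir137, Mir144, Mir3068, Mir499, Mir203, Mir592, Mir216a, Mir215, Mir202 and Mir463 also fell, by 0.36 to 1.22. Mir10b, which the study names, was not separated, reading -0.60, -0.60 and 0.07 against 0.32, 0.46 and 0.46.

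**Figure D4:**
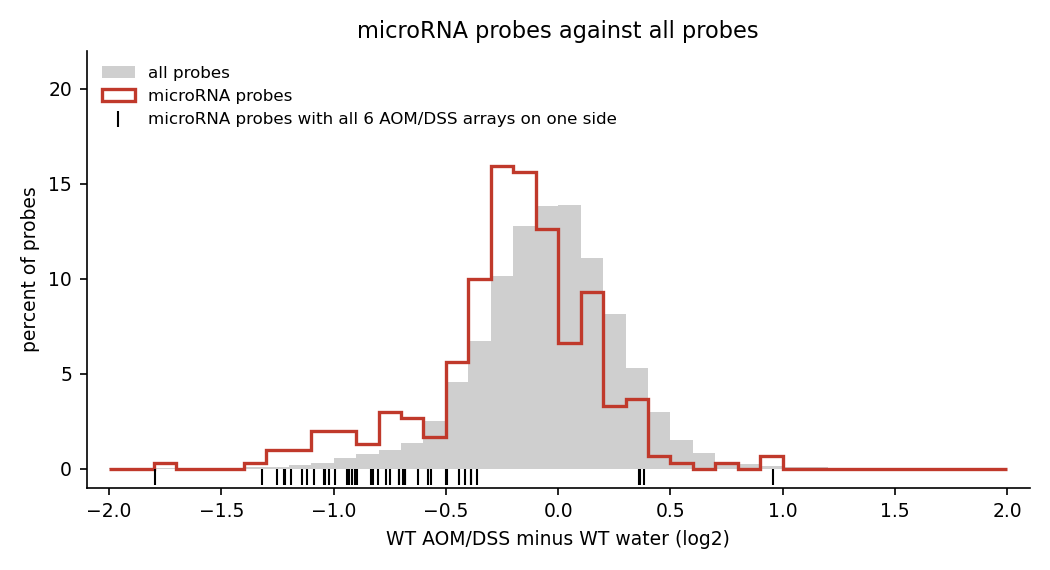
Distribution of the WT difference, AOM/DSS minus water in log2 units (x axis), as percent of probes (y axis), for all probes (gray, those beyond 2 in size drawn in the end bins) and the 301 microRNA probes (red outline). Ticks mark the 42 separated microRNA probes, 38 of them between -0.36 and -1.80 and 4 between 0.36 and 0.96.

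The leading falls outside the microRNAs were genes best known from other tissues. Meig1, needed for sperm formation, read -0.66, -1.05 and -0.87 against 1.04, 0.95 and 0.93. Slc12a1, the sodium-potassium-chloride transporter of the kidney, read -0.72, -0.96 and -1.10 against 0.83, 0.59 and 0.86. Gabrb1, a subunit of the GABA receptor, read -1.12, -1.31 and -0.43 against 0.76, 0.67 and 0.44. Every treated array was below every control, and the least folds of the 12 leading falls were 1.99 to 3.19. Relative values do not show whether such genes were above background on any array.

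The chemoreceptors Olfr1154 and Vmn2r76 each fell by 1.53. Cyp2a12, a cytochrome P450 of the liver, fell by 1.40, and Lcn3, a lipocalin, by 1.48, reading -1.48, -1.93 and -0.28 against 0.28, 0.06 and 0.41. Adgrd2-ps, a pseudogene, fell by 1.69. Genes with several probes fell at some of them. Myo9a, an unconventional myosin, fell by 1.90 at 1 of 13 probes, whose median difference was -0.03. Trdn, a protein of the muscle calcium release complex, fell at 5 of 19 probes with a median of -0.39. Hormad1, of meiotic chromosomes, fell at 1 of 2 and Csmd3, a large adhesion gene of the brain, at 2 of 7. Further genes named by the study were Olfr1218, Olfr125, Oxgr1, a receptor of oxoglutarate, 4933436I01Rik, Ccdc30 and Nlrp4d, which fell by 1.36, 1.34, 1.25, 1.21, 1.21 and 1.19. Camk2b, a calmodulin-dependent kinase, differed by -0.73 and was not separated. Of the 12 leading falls, which were picked by their WT difference, 0 were larger in TSP-1-/- colon, against 421 of all 1151 falls with water values.

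Large receptor families, taken up after their values were seen, shared the direction of the microRNAs. Of 1035 probes of olfactory receptors 83 fell (8.02%) and 7 rose, and of 174 probes of vomeronasal receptors 19 fell (10.9%) and 1 rose, beside 4.02% and 2.02% of all probes. Their median WT differences were -0.19 and -0.28, beside -0.18 for the microRNAs. In TSP-1-/- colon they were 0.07 and 0.07, beside 0.06 for the microRNAs and 0.06 over all probes. The part of a general shift of such probes between the array sets in the microRNA result was not tested.

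Thbs1, which encodes thrombospondin-1, read 0.27, -0.16 and -0.07 in WT AOM/DSS and -0.82, -0.45 and 0.07 in WT water. The groups overlapped at WT water replicate 3, and the difference was 0.41 (1.33-fold). It was not separated.

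The WT response was set against that of TSP-1-/- colon with limma on all 12 arrays, where 1 offset common to the 6 water columns cancels. Where no single offset fits the water columns, as in the probes described above, such a shift need not cancel. Of 28815 probes, 2 (0.00694%) passed an adjusted p under 0.05 with at least a 2-fold difference, Rfx4 and Atp6v0d2, and both were higher after AOM/DSS in TSP-1-/- colon. The unadjusted limma p was under 0.05 in 4431 of the 28815 probes. A probe that did not pass is thus not shown to respond alike in both genotypes. Rfx4, a transcription factor of cilia genes, differed by -0.20 in WT and by 6.20 in TSP-1-/- (adjusted p = 7.98e-06). Atp6v0d2, a proton pump subunit of osteoclasts and macrophages, differed by -0.31 and 2.68 (adjusted p = 0.0115). Its call was lost with the replicate number as a block (limma adjusted p = 0.0592) and after quantile normalization (0.150). The count rose to 292 when WT AOM/DSS replicate 1 was left out, and to 138 and 30 when replicate 2 or 3 of TSP-1-/- AOM/DSS was.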

How the data were processed

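The authors summarised the array signals with PLIER16, quantile normalized them and deposited log2 values relative to a baseline per probe, given as the median of all 12 samples. These log2 values were used as deposited, except for 1 offset per probe on the 6 water columns that set the 12-array median to 0 (the midpoint where several offsets did). Groups came from the labels. Genes were named from the 21789 of 28853 probes that carry 1 symbol, leaving 1621 with several and 5443 without, and 38 probes had no water values. Separation was tested exactly, and genotype responses were compared with limma 3.58.1 in R 4.3.3 (adjusted p under 0.05, at least 2-fold). Other steps used Python 3.11.15, pandas 2.3.3 and numpy 2.4.6. Depth does not apply to arrays, whose number limits the precision. The exact p rests on the order of arrays labelled biological replicates, and limma's p on the spread between them. The exact p cannot tell AOM/DSS from the array set.

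Named genes were drawn from the 12 largest rises and 12 largest falls among separated probes without overlap in WT, up to 5 members of each list by absolute WT difference, all separated microRNAs, genes that the study names for this comparison, and Thbs1. The 7 host gene probes were left out of the microRNAs, of which 270 of 298 matched a mature RefSeq sequence. The comparison, the gene lists and the tests were chosen with earlier results of these data known. Alternatives were the offset, centring or quantile normalizing the arrays, a coefficient of variation under 25% in at least 1 group, 1.5-fold in place of 2-fold, a mean over the probes of a gene, the replicate number as a block, and leaving out each array. The study's filter on the lowest signals could not be applied to relative values. The methods were tested on simulated data. There the water columns were off by exactly 1 offset per probe, so that test does not cover the probes where no single offset fits. Some genes are not reported here.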

Additional observations from a re-analysis of the deposited data

Results flagged for a closer look

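By limma's test of the difference itself, the AOM/DSS response of 2 genes passed the thresholds for a difference between the genotypes. The response of Rfx4 in WT minus that in TSP-1-/- colon was -6.39 log2 units (limma adjusted p = 7.98e-06). Rfx4 read 5.80, 5.87 and 6.88 on the TSP-1-/- AOM/DSS arrays and between -0.34 and -0.06 on those of WT. For Atp6v0d2 the difference of responses was -2.99 (limma adjusted p = 0.0115), with 2.05, 3.09 and 2.91 against -0.20, -0.25 and -0.29. In both genes every TSP-1-/- AOM/DSS array was above the other 9. With the replicate number as a block the adjusted p of Atp6v0d2 was 0.0592, and over the alternatives it went up to 0.150 after quantile normalization.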

How the results depend on the processing

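Counts of separated probes were kept within 1.5 times by centring, quantile normalization and the filter on variation. Centring, quantile normalization and leaving out an array used the water columns after the offset, here and for the lists below, unlike the main call. Leaving out 1 array gave 629 to 1541 probes that rose, with 936 without WT AOM/DSS replicate 2 and 1541 without replicate 3, and 1193 to 1600 that fell. Fewer arrays also weaken the test. With 5 against 6 the exact permutation p is 0.00433, and its adjusted value was 0.0397 without WT AOM/DSS replicate 3 and 0.0530 to 0.0674 without any of the other 11 arrays. The number of probes 2-fold or more higher in WT was 248 with the water columns as deposited, 221 after quantile normalization and 586 at 1.5-fold, and that of lower probes 115, 470 and 1384. Vip, which fell by 0.80, had a difference of 0.14 without the offset, the one reversed value. Of 80 named separated probes, 3 lost their separation on centring (Dio3, Irf1 and Mir219a-1), and the same 3 on quantile normalization.

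Of the pathway list probes, 12 to 29 rose (29 without WT AOM/DSS replicate 2, 25 without replicate 3) and 3 to 13 fell with 1 WT array left out (13 without WT AOM/DSS replicate 3, 6 without replicate 1 or 2, 5 without WT water replicate 1). MicroRNA genes that rose numbered 5 to 7 with 1 WT array left out, 7 of them without any single WT AOM/DSS array, and 4 with all arrays. The genotype comparison called 18 probes after quantile normalization, 7 under the filter on variation, and 1 to 292 with 1 array left out (292 when WT AOM/DSS replicate 1 was absent, 138, 30 and 6 for replicates 2, 3 and 1 of TSP-1-/- AOM/DSS, and 1 for WT AOM/DSS replicate 3, WT water replicate 1 or TSP-1-/- water replicate 2). The cause of these shifts was not tested. The labels number the replicates but do not say whether equal numbers pair the mice. Of 18 same-numbered pairs of arrays 8 correlated above 0.1 in their deviations (range -0.231 to 0.402), and 7 of 12 arrays matched their own number best. With the replicate number as a block the genotype comparison made 1 call. A paired test was not run for separation or within WT, where no test is given. The arrays hold no absolute signal, so that dim probes could not be left out.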

Other observations

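Genes of the circadian clock were taken up after their values were seen. Of 18 probes, 7 were 2-fold or more higher in WT after AOM/DSS (against 0.351% of all probes) and 1 was 2-fold or more lower (against 0.909%), with a median difference of 0.68. The median was 0.99 without WT AOM/DSS replicate 1 and 0.08 in TSP-1-/- colon. Bhlhe41 was the one separated probe. Dbp, an output factor of the clock, read 0.14, 1.51 and 1.76 on the WT AOM/DSS arrays and -1.0, -0.35 and 0.46 on the WT water arrays. Arntl, which drives the same loop in opposite phase, differed by -1.03. Replicates 2 and 3 were both above replicate 1 in 13 of the 18 probes, and the hour of sacrifice is not given in the sources used here.

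Ribosomal protein genes, also taken up afterwards, rose at 25 of 216 probes (11.6%, against 2.02% of all probes), which belong to 6 of 67 genes, and fell at 4 (1.85%, against 4.02%), with a median difference of 0.02. The largest downward WT differences belonged to probes that were not separated. Mptx1, a pentraxin of the mucosa, read -0.45, -4.79 and -4.19 against 2.68, 1.91 and -1.60. S100g, the intestinal calcium-binding protein, read -3.81, -0.31 and 0.07 against -0.07, 0.85 and 2.58. Ido1, the tryptophan-degrading enzyme induced by interferon, read 0.01, 0.22 and 1.66 against -1.72, -1.28 and -0.73 without overlap. These 3 were named after their values were seen.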
